A study of Mus musculus with 21 samples.

Results

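The genes described here are 10 cell adhesion molecules of the immunoglobulin superfamily in cells of the mouse inner ear: *L1cam*, *Chl1*, *Ncam1*, *Ncam2*, *Alcam*, *Cntn2*, *Cntn4*, *Cntn5*, *Cntn6* and *Dscam*. The rule named them as a gene family and used no measured value, though earlier results of these data were known when it was set. They are 10 of the 52550 genes of the count table. RNA-Seq libraries had been made from spiral ganglion neurons (SGNs), the primary auditory neurons of the cochlea, at 5 ages, 1 embryonic (E15.5) and the others postnatal, named by day (P1, P8, P14, P30). Hair cells (HCs) at P12 and cochlear glia at P8 served as reference cells, and each of these 7 groups had 3 replicates, giving 21 libraries. The comparisons ask how the adhesion genes of the neuron change while it matures, and which of them separate it from these reference cells.

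All cells were from C57BL/6 mice and carried the Cre-dependent tdTomato reporter Ai9 at *Rosa26*. SGNs came from *ShhCre/+; Ai9/+* mice, in which *Shh*, active for a time in SGNs, drives Cre. From these, tdTomato-positive cells were picked by hand, with between 69 and 195 cells per library. HCs came from *Atoh1-CreER+; Ai9* mice given tamoxifen at P0 and P1, and each library held about 1200 cells of cochlear and vestibular organs together. Glia came from *vGlut3-iCreER/+; Ai9/+* mice given tamoxifen at P2 and P3, with between 86 and 125 picked cells per library from the ganglion region alone. The labels do not say that replicates were separate animals, so p-values measure the spread between these samples, which may be technical.

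Immunoglobulin cell adhesion molecules carry extracellular immunoglobulin domains, mostly followed by fibronectin type III repeats. They bind copies of themselves or other family members on neighboring membranes, and in neurons they are known for roles in axon growth, the bundling of axons, target choice and synapse formation. *L1cam* and *Chl1* encode the L1-type proteins L1 and close homolog of L1, which reach the cytoskeleton through ankyrins. *Ncam1* and *Ncam2* encode the neural cell adhesion molecules, and NCAM1 is the main carrier of polysialic acid, a sugar polymer that weakens adhesion. *Alcam* encodes activated leukocyte cell adhesion molecule, which binds itself and, on T cells, CD6. The contactins are held to the membrane by a lipid anchor and have no cytoplasmic part. *Cntn2* encodes TAG-1, which takes part in the juxtaparanodes of myelinated axons. *Cntn4*, *Cntn5* and *Cntn6* encode contactins of synaptic wiring. *Dscam* encodes Down syndrome cell adhesion molecule, which is known for self-avoidance of neurites.

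Positions are on GRCm38 in the GENCODE M21 annotation, where the genes of chromosome 6 follow one another. *Chl1* (chromosome 6, 103510586 to 103750211), *Cntn6* (chromosome 6, 104492790 to 104863406) and *Cntn4* (chromosome 6, 105677660 to 106699310) share the plus strand. *Ncam1* (chromosome 9, 49502136 to 49798925) and *Cntn5* (chromosome 9, 9660891 to 10904775) are on the minus strand. *Alcam* (chromosome 16, 52248996 to 52454074) and *Dscam* (chromosome 16, 96590840 to 97170752) are on the minus strand of a chromosome that holds *Ncam2* (chromosome 16, 81200697 to 81626828) on its plus strand. *Cntn2* spans 132509427 to 132543256 of chromosome 1 and *L1cam* 73853778 to 73896105 of chromosome X, both on the minus strand. *L1cam* overlaps *Arhgap4* on the same strand and *Avpr2* on the other, *Ncam1* has an antisense partner, *Gm11149*, and *Cntn5* has *Gm32710* among others. Genes on the opposite strand also overlap *Chl1* (*Gm7946*), *Ncam2* (*Gm26023*) and *Dscam* (*AC154538.2* among others). Further genes on the same strand overlap *Chl1*, *Ncam2* and *Cntn5*. Since the strand setting of the counting is not given in the sources used here, reads of such partners cannot be told apart.

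A promoter window of the 250 bases before a RefSeq start on GRCm38.p6 was found for 9 of the 10 genes. *Ncam1* had none. The windows below are shown because they hold no base of an annotated exon. They belong to a gene that kept a high level in SGNs (*L1cam*), one that held a lower level (*Ncam2*), one that fell (*Cntn5*) and one that was low throughout (*Cntn4*). Those of *Ncam2* and *Cntn5* lie directly before the gene span given above. Those of *L1cam* and *Cntn4* lie inside it, before a RefSeq start well past the GENCODE start. No window found for these genes lies at the GENCODE start, so their CG counts do not describe it. Capitals mark the dinucleotide CG, read 5′ to 3′ on the gene's strand.
*L1cam*, chrX:73880835-73881084, minus strand: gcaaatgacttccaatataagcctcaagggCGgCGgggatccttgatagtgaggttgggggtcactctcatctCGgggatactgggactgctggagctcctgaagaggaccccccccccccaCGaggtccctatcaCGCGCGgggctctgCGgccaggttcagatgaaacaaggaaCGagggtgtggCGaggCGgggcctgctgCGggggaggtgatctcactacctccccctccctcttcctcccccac
*Ncam2*, chr16:81200447-81200696, plus strand: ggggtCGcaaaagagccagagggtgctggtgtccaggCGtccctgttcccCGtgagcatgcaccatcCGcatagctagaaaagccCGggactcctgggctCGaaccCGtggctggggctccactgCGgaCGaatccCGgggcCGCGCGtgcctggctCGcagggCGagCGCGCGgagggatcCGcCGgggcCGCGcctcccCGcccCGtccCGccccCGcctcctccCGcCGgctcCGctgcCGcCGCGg
*Cntn5*, chr9:10904776-10905025, minus strand: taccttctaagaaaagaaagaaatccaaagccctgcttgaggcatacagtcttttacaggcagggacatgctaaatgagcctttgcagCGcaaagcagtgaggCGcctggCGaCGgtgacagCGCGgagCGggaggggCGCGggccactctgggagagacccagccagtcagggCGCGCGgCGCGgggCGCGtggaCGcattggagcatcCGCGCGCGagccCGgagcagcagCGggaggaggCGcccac
*Cntn4*, chr6:106118515-106118764, plus strand: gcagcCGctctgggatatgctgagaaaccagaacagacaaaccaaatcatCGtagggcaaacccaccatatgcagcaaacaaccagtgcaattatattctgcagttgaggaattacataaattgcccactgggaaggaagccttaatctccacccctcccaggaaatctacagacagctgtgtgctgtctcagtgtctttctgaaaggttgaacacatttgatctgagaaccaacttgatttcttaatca

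The motif searched was CG, which reads the same on both strands. Of all 32851 windows of this length, 92.1% held it, with a median of 6 per window. The *Ncam2* window held 32, more than 95.4% of all windows, and the *Cntn5* window held 24. In *L1cam* the count was 12, and in *Cntn4* it was 2. These 2 genes and *Cntn5* had a second start in the table, and its window, which overlapped an exon, held 20 for *L1cam*, 12 for *Cntn4* and 26 for *Cntn5*. Windows of the other genes held 22 for *Alcam*, 21 for *Dscam*, 10 for *Cntn2*, 8 for *Chl1* and 3 for *Cntn6*, and all 5 of these overlapped an exon of a GENCODE transcript.

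Depth ranged from 10368240 to 37287489 counts on genes per library. Where a gene had 0 counts, up to 3 counts were allowed for, equal to between 0.0805 and 0.289 CPM (counts relative to the library total), a limit that covers counting error only. Summed SGN markers (*Slc17a6*, *Tubb3*, *Snap25* and others) lay between 627 and 3860 in SGN libraries and between 62.1 and 75.7 in HC libraries, in the unit described next. Glia replicate 1 stood apart, with 246 against 45.5 and 24.7 in the other glial libraries. The summed glial markers (*Sox10*, *Foxd3*, *Mbp* and *Pmp22*) reached 1580 to 2400 in glia and 229 to 533 in P8 SGNs, while SGN libraries of other ages ranged from 5.31 to 243. HC markers summed to between 813 and 852 in HCs, to at most 105 in SGN libraries and to between 55.3 and 89.4 in glia. Replicate 1 stood apart from its companions at several SGN ages. Connective tissue markers (*Col1a1*, *Col1a2*, *Dcn* and *Lum*) summed to 71 in P1 replicate 1, 109 in P8 replicate 1, 30.5 in P14 replicate 1 and 16.5 in P30 replicate 1, against at most 13.9 in the other libraries of these ages. In glia they summed to 139, 265 and 190 in replicates 1, 2 and 3, above every SGN library. The part of connective tissue RNA in the glial levels below was not tested. Blood markers (hemoglobin genes and *Alas2*) summed to 117, 18.7, 22.8 and 14.6 in replicate 1 of E15.5, P1, P8 and P30, against at most 2.54 in all other SGN libraries. Endothelial markers reached 41.7 in P1 replicate 1 and 8.15 in P8 replicate 1, against at most 2.35 elsewhere in SGNs. Results are therefore also given without the replicate 1 libraries of all 5 SGN ages where this changed a call or moved a called fold by over 1.5 times.

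Levels are given as RPKM, reads per kilobase of gene length scaled by the effective library size (TMM normalization), so that levels of different genes can be set side by side. In bulk samples, fewer cells of a type and less RNA per cell cannot be told apart. The summed level of the 10 genes was 279 ± 33.3 RPKM (SD, n = 3) in E15.5 SGNs and 232 ± 4.93 at P1. It was 154 ± 7.96 at P8, 120 ± 16.8 at P14 and 139 ± 33 for P30 SGNs. Glia had 96.9 ± 19.8 and HCs 11.8 ± 0.538. Thus every SGN age lay above the HCs by a wide margin, and the summed level of P1 SGNs lay above that of P8 SGNs in every library.

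**Figure D1:**
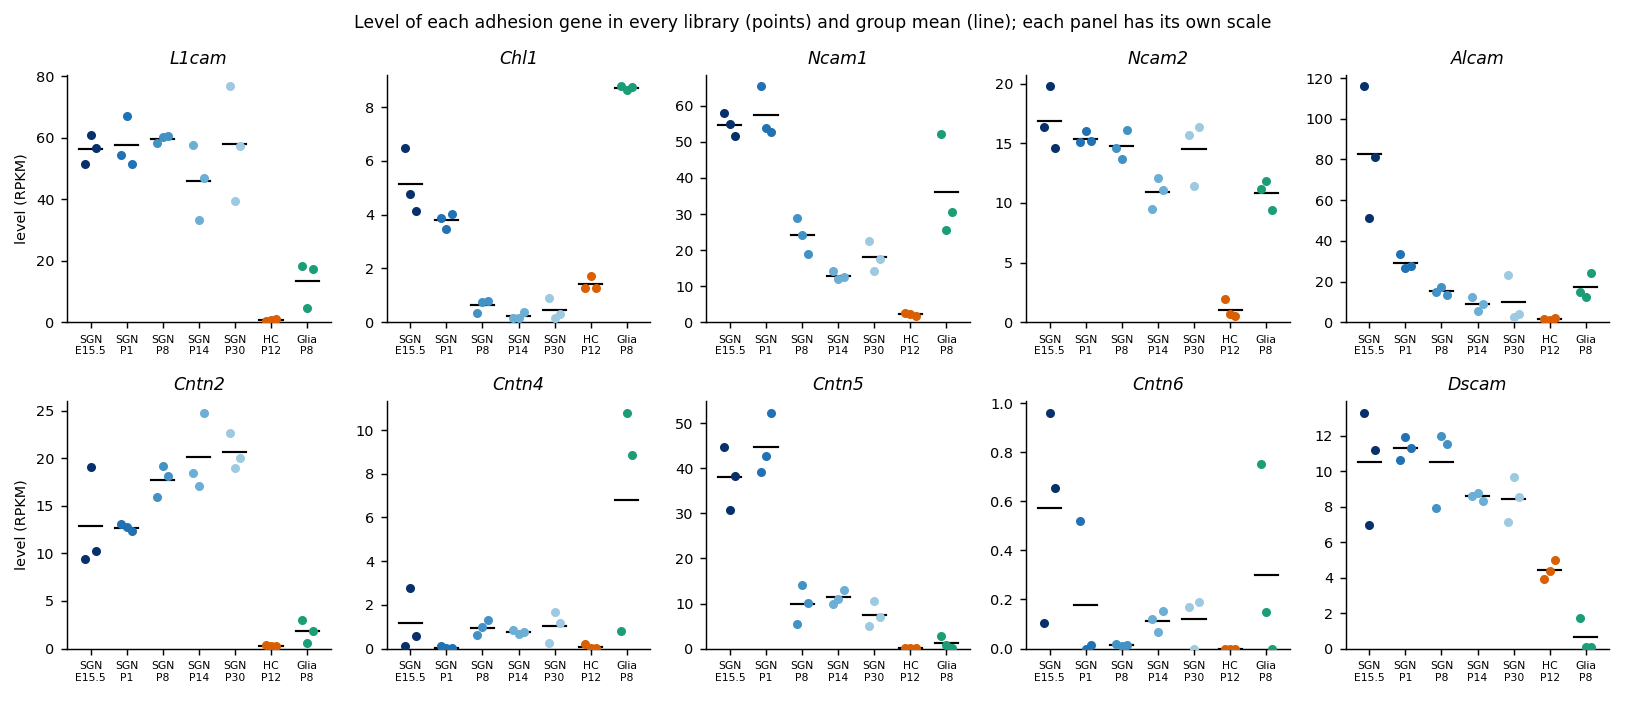
Level in RPKM (y axis, linear, own scale per gene) of the 10 adhesion genes in each of the 21 libraries (points) with the mean of each group of 3 (line). *L1cam* stayed between 33.3 and 76.7 RPKM in SGNs, while *Chl1*, *Ncam1*, *Alcam* and *Cntn5* were lower at P30 than at E15.5 in every library.

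*Alcam* had the highest mean level at E15.5, though its range (51 to 116 RPKM) covered that of *L1cam*. *L1cam* had the highest mean from P8 on. At P1, *L1cam* (51.4 to 66.9 RPKM) and *Ncam1* (52.8 to 65.5) did not differ beyond their spread. At E15.5, *Alcam* made up 29.7% of the summed level, *L1cam* 20.2%, *Ncam1* 19.6% and *Cntn5* 13.6%. The E15.5 ranges of *L1cam* (51.5 to 60.8 RPKM) and *Ncam1* (51.6 to 58) overlapped as well. At P30, *L1cam* made up 41.8%, *Cntn2* 14.8%, *Ncam1* 13% and *Alcam* 7.22%. In HCs the largest share was that of *Dscam*, 37.5%, and in glia that of *Ncam1*, 37.3%.

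**Figure D2:**
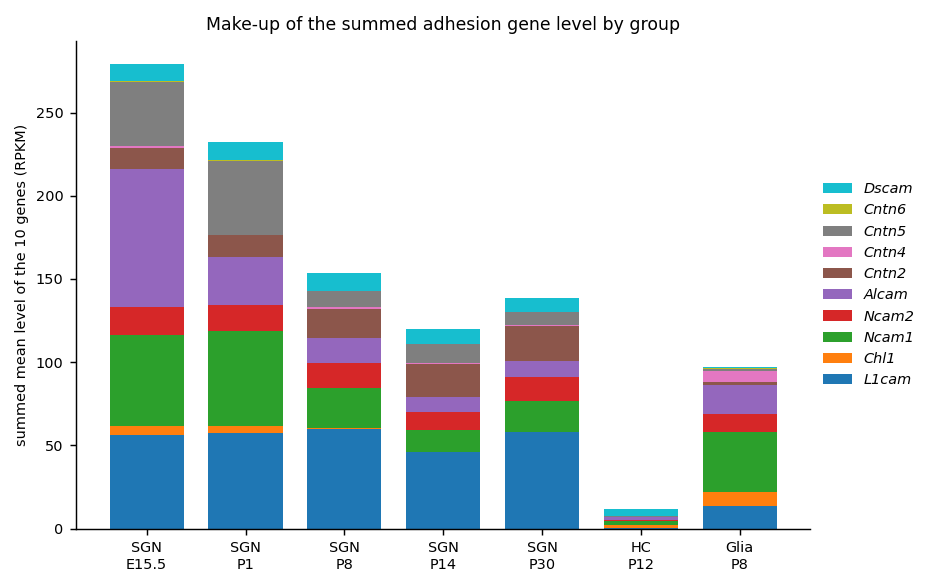
Mean level in RPKM of each of the 10 genes stacked by group (y axis, from 0; 3 libraries per group). The stack falls from 279 RPKM in E15.5 SGNs to 120 RPKM at P14, with a *L1cam* layer of 56.4 RPKM at E15.5, 46 at P14 and 57.9 at P30, and reaches 11.8 RPKM in HCs.

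Across the 5 ages, 5 of 9 tested genes (*Chl1*, *Ncam1*, *Alcam*, *Cntn2* and *Cntn5*) passed limma's F-test at a Benjamini-Hochberg (BH) adjusted p under 0.05, as did 37.8% of the 15113 genes tested in SGNs. Without the replicate 1 libraries *Cntn2* did not pass (adjusted p = 0.207 from limma) and *Cntn4* did (0.0458). *Cntn2* was also lost in edgeR (quasi-likelihood, BH-adjusted p = 0.0504) and with limma's sample quality weights (0.0576). Leaving out E15.5 replicate 1 or 3, P1 replicate 2 or 3, or P8 replicate 2 did the same (limma BH-adjusted p 0.0521 to 0.0748). So did leaving out P30 replicate 1 (0.0653) or 3 (0.0538). *Cntn4* passed in edgeR (0.0348) and DESeq2 (0.00116), and in limma without E15.5 replicate 2 (0.0186) or P30 replicate 1 (0.0179). *Ncam2* passed in DESeq2 (0.0389). *Cntn6* was not tested, since no group had more than 1 CPM of it in all replicates. Between single ages, a gene was called when limma's BH-adjusted p was under 0.05 and the change was over 2-fold.

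From E15.5 to P30, *Chl1*, *Ncam1*, *Alcam* and *Cntn5* fell, 4 of 9 tested genes, and 0 rose. Of all genes tested, 34.6% were called, 18.4% as higher and 16.2% as lower. The median fitted log2 change of the 9 genes was -0.31, beside -0.0064 over all genes tested. *L1cam*, *Ncam2*, *Cntn2*, *Cntn4* and *Dscam* did not pass both thresholds.

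*Alcam* was measured at 116, 51 and 81.2 RPKM in the E15.5 libraries and at 23.2, 2.78 and 4.04 RPKM at P30. The groups did not overlap, and P30 replicate 1 was well above its companions. The fitted log2 change was -3.42 (SE 0.511, limma BH-adjusted p = 6.87e-05). Without P30 replicate 1 it was -4.55, a fold change more than 1.5 times as large, and without the replicate 1 libraries of all SGN ages it was -4.29. *Alcam* was highest in replicate 1 at E15.5, P1, P14 and P30. P30 replicate 1 also had the highest glial marker sum of its age, 126 against 20.4 and 5.31, beside the connective tissue and blood sums given above (0.454 and 0.174, and 1.21 and 2.42, in its companions), and 91.6 RPKM of *Prph*, the gene of the intermediate filament protein peripherin that marks type II SGNs, against 1.83 and 0.347. Whether these play a part in its *Alcam* level was not tested.

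*Chl1* levels were 6.49, 4.76 and 4.15 RPKM at E15.5 and 0.909, 0.152 and 0.298 RPKM at P30. Every P30 library lay below every E15.5 library, and P30 replicate 1 was again the highest of its age. Fitted as a log2 change, the difference was -3.69 (SE 0.533, limma BH-adjusted p = 5.05e-05), -4.55 without P30 replicate 1 and -4.39 without all replicate 1 libraries.

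*Cntn5* was at 44.8, 30.7 and 38.4 RPKM at E15.5 and at 5.02, 10.6 and 6.96 RPKM at P30, with no overlap. Its log2 change was -2.47 (SE 0.323, limma BH-adjusted p = 1.76e-05). *Ncam1* went from 58, 54.9 and 51.6 RPKM to 22.6, 14.3 and 17.4 RPKM. Here too the groups did not overlap, and the log2 change was -1.63 (SE 0.186, limma BH-adjusted p = 4.43e-06). Groups that do not overlap between E15.5 and P30, with P30 lower, were found for 24.2% of all genes tested.

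*L1cam* had 51.5, 60.8 and 56.8 RPKM at E15.5 and 76.7, 39.5 and 57.4 RPKM at P30. The P30 values spread to both sides of the E15.5 values. The fitted log2 difference was -0.02 (SE 0.218, limma BH-adjusted p = 0.959), near the middle of all genes tested, of which 49.7% had a lower value. *Ncam2* levels of 16.4, 19.8 and 14.6 RPKM at E15.5 overlapped those of 15.7, 11.4 and 16.4 RPKM at P30, with a log2 difference of -0.25 (SE 0.182). *Dscam* likewise overlapped, with 13.3, 6.99 and 11.2 RPKM at E15.5, 7.14, 9.69 and 8.52 RPKM at P30 and a log2 difference of -0.31 (SE 0.245).

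*Cntn2* differed in the other direction. Its levels were 9.4, 19.1 and 10.2 RPKM at E15.5, where replicate 2 stood above the others, 13.1, 12.8 and 12.3 RPKM at P1, and 22.6, 19 and 20 RPKM at P30. The log2 difference of 0.70 (SE 0.22, limma BH-adjusted p = 0.0179) was under the 2-fold threshold. Without E15.5 replicate 2 it was 1.03 (limma BH-adjusted p = 0.000792) and passed both thresholds. That library also held 192 RPKM of *Prph*, against 17.4 and 7.41 in the other E15.5 libraries. Whether this bears on *Cntn2* was not tested.

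**Figure D3:**
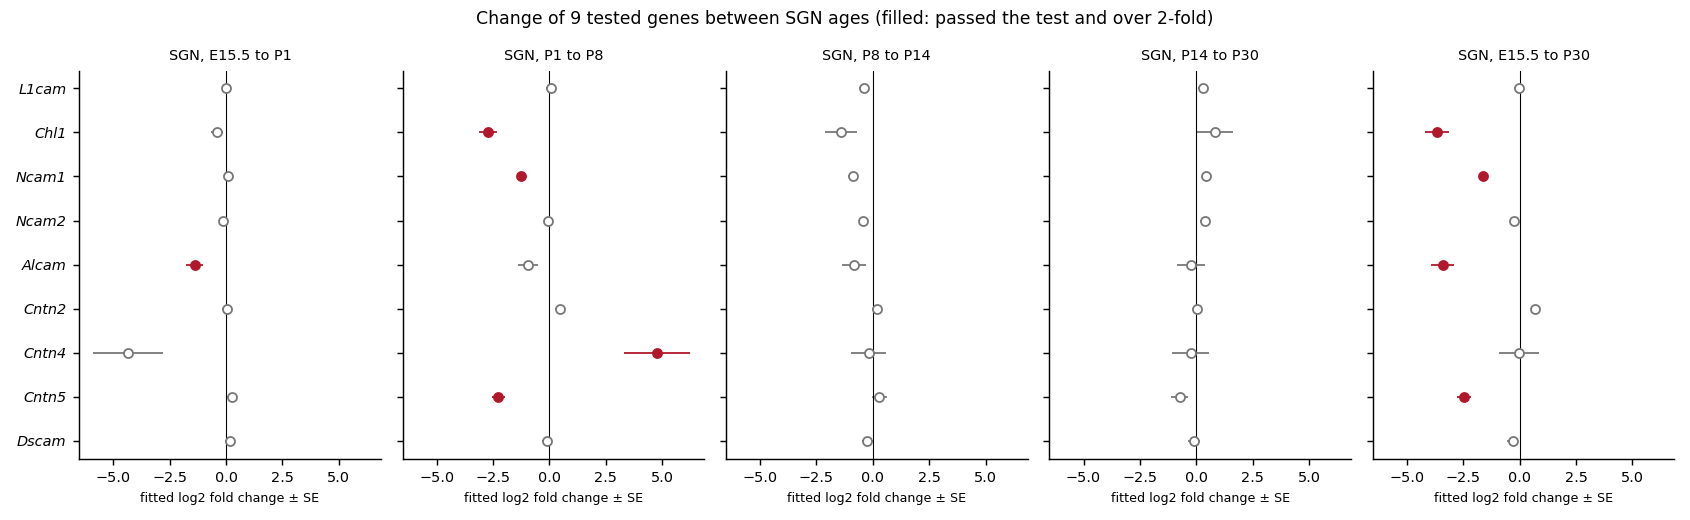
Fitted log2 fold change between SGN ages (x axis, bars are ± SE) of the 9 tested genes in 4 steps and over the whole interval; filled points passed limma's BH-adjusted p under 0.05 and a 2-fold change. In the panels, *Alcam* is filled from E15.5 to P1, 4 genes from P1 to P8, none in the later steps, and 4 genes from E15.5 to P30.

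The steps differed in which genes were called. Between E15.5 and P1, *Alcam* alone fell, 1 of 9 tested genes, where 8.26% of all genes were called, 5.08% as higher and 3.18% as lower. The P1 libraries measured 33.7, 26.8 and 27.4 RPKM, all below the E15.5 libraries, as were 11.2% of all genes, and the log2 change was -1.39 (SE 0.386, limma BH-adjusted p = 0.0293). The size stayed between -1.13 and -1.56 in the alternatives that follow, but the adjusted p did not pass. This was so without E15.5 replicate 1 (limma BH-adjusted p = 0.11), E15.5 replicate 3 (0.0854), P1 replicate 1 (0.0555), P1 replicate 2 (0.0913) or P1 replicate 3 (0.0736), and when edgeR (quasi-likelihood, BH-adjusted p = 0.118) or DESeq2 (0.104) replaced limma. E15.5 replicate 1, the highest for *Alcam*, had a summed blood marker level of 117 RPKM, against at most 1.78 in the other E15.5 libraries. Without the replicate 1 libraries of all SGN ages the log2 change was -1.24 and passed (adjusted p = 0.0161 from limma).

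Between P1 and P8, *Chl1*, *Ncam1* and *Cntn5* fell and *Cntn4* rose, 4 of 9 tested genes, where 7.44% of all genes were called, 4.29% as higher and 3.15% as lower. *Chl1* had 3.86, 3.48 and 4.02 RPKM at P1 and 0.326, 0.771 and 0.801 RPKM at P8. Its groups were far apart, with a log2 change of -2.72 (SE 0.41, limma BH-adjusted p = 0.000423). *Cntn5* had 39.3, 42.8 and 52.4 RPKM at P1 and 5.5, 14.1 and 10.2 RPKM at P8, a log2 change of -2.27 (SE 0.276, limma BH-adjusted p = 7.8e-05). *Ncam1* had 65.5, 53.8 and 52.8 RPKM at P1 and 29, 24.2 and 19 RPKM at P8, a log2 change of -1.27 (SE 0.167, limma BH-adjusted p = 0.000142). P1 and P8 did not overlap for any of the 3, as for 15.6% of all genes with P8 lower, and these 3 calls held without each SGN library in turn. For *Alcam* the P8 levels were 14.9, 17.4 and 13.4 RPKM, also below every P1 library. Its log2 difference from P1 was -0.95 and did not pass (limma BH-adjusted p = 0.181).

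*Cntn4*, the gene that rose, was near the limit of counting at P1. Its counts were 16, 486 and 100 at E15.5, 31, 2 and 4 at P1, and 167, 246 and 271 at P8. In RPKM these were 0.127, 2.79 and 0.574, then 0.105, 0.0094 and 0.0201, then 0.607, 0.964 and 1.29. All P1 libraries were below all others of these ages, and the E15.5 libraries were widely spread. The log2 change from P1 to P8 was 4.78 (SE 1.48, limma BH-adjusted p = 0.0469). The call was lost, by limma BH-adjusted p, without any P1 library (0.122 to 0.138) and without P8 replicate 2 (0.0894) or 3 (0.0967). It was lost likewise without E15.5 replicate 3 (0.0668), any P14 library (0.0554 to 0.0582) or P30 replicate 3 (0.0505). Leaving out the filter on low counts also lost it (limma BH-adjusted p = 0.0621), as did, separately, the fit of all 21 libraries (0.0971). Without the replicate 1 libraries of all SGN ages the log2 change was 6.08 and did not pass (adjusted p = 0.0617 from limma). The log2 difference from E15.5 to P1 was -4.35 (limma BH-adjusted p = 0.0782), and -5.27 without E15.5 replicate 1, where it passed (limma BH-adjusted p = 0.04), and -6.28 without all replicate 1 libraries (0.0449). Glia expressed *Cntn4* at a mean of 6.8 RPKM, and summed glial markers went from 14.2 to 61.7 RPKM in the P1 libraries to 229 to 533 in the P8 libraries. The part of this in the P8 level of *Cntn4* was not tested.

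Between P8 and P14, 0 of 9 genes were called by limma, edgeR or DESeq2, where limma called 0.536% of all genes, and 2 genes, *Ncam1* and *Ncam2*, had an unadjusted p under 0.05. *Ncam1* levels at P14 were 14.1, 11.9 and 12.6 RPKM, all below the P8 libraries (10% of all genes), with a log2 difference of -0.88 (SE 0.203, limma BH-adjusted p = 0.0529). All P14 libraries also lay below all P8 libraries for *L1cam* (33.3 to 57.7 against 58.4 to 60.6 RPKM). The same held for *Ncam2* (9.47 to 12.1 against 13.7 to 16.1) and *Alcam* (5.29 to 12.2 against 13.4 to 17.4). Their limma BH-adjusted p values were 0.521, 0.361 and 0.608. Between P14 and P30, 0 of 9 genes were called by any of the 3 tools, where limma called 0.0596% of all genes, and 0 had an unadjusted p under 0.05. *Chl1* had 0.168, 0.157 and 0.397 RPKM at P14, *Alcam* 12.2, 5.29 and 8.92 RPKM, and *Cntn5* 9.87, 11.1 and 13.1 RPKM, and each of these ranges overlapped that at P30.

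*Cntn6* was low in every group. Its counts were 10, 128 and 87 at E15.5, 118, 0 and 2 at P1, and 4, 2 and 2 at P8. At P14 they were 18, 8 and 16, and at P30 33, 0 and 23. Only E15.5 replicates 2 and 3 and P1 replicate 1 held more than 50 counts among SGN libraries. HCs had 0 counts in all 3 libraries, which allows at most 0.167 to 0.246 CPM, and glia had 94, 11 and 0.

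SGNs were next set against the reference cells, with the mean of the 5 fitted ages as the SGN side and a limma BH-adjusted p under 0.01 with a change over 4-fold as the threshold. Against HCs, 6 of 9 tested genes (*L1cam*, *Ncam1*, *Ncam2*, *Alcam*, *Cntn2* and *Cntn5*) were higher in SGNs and 0 were lower, where 26.8% of all genes were called, 10.5% as higher and 16.2% as lower. The median log2 difference of the 9 genes was 3.70, against 0.0188 over all genes tested. The HCs were P12 cells of 2 organs and the SGNs of other ages, so age cannot be told apart from cell type.

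*Cntn5* was nearly absent from HCs, with 8, 10 and 4 counts, or 0.105, 0.095 and 0.0356 RPKM. The log2 difference was 7.75 (SE 1.06, limma BH-adjusted p = 3.01e-06). *L1cam* had 0.25, 0.68 and 1.09 RPKM in HCs, against no less than 33.3 in any SGN library, a log2 difference of 6.51 (SE 0.815, limma BH-adjusted p = 8.89e-07). *Cntn2* had 0.376, 0.264 and 0.29 RPKM in HCs and at least 9.4 in SGNs, a log2 difference of 5.73 (SE 0.619, limma BH-adjusted p = 1.08e-07). These 3 genes did not overlap between SGNs of any age and HCs, as was found, with SGNs higher, for 14.1% of all genes.

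*Ncam2* (1.92, 0.692 and 0.484 RPKM in HCs), *Ncam1* (2.6, 2.29 and 1.79 RPKM) and *Alcam* (1.57, 1.09 and 1.99 RPKM) were higher in SGNs by 4.12, 3.70 and 3.61 on the log2 scale. In RPKM, even the lowest SGN library, 2.78 of *Alcam* at P30, lay above the HCs. This did not hold for *Alcam* in plain TPM, the length-scaled count relative to the sum over all genes. There HCs had 5.34, 3.95 and 7.46. P14 replicate 2 (4.24) and P30 replicate 2 (4.55) lay within that range, and P30 replicate 3 (3.55) lay below it. *Dscam* was the highest of the 10 genes in HCs, with 3.92, 4.37 and 5.01 RPKM, and differed from SGNs by 1.10 (SE 0.286, limma BH-adjusted p = 0.00271), under the 4-fold threshold. In RPKM every SGN library of *Dscam* (lowest 6.99) lay above the HCs, as for 14.1% of all genes. In plain TPM the HC values, 13.3, 15.9 and 18.8, lay inside the SGN range of 6.31 to 28.2. *Chl1* had 1.28, 1.72 and 1.29 RPKM in HCs, within the range of the SGN ages, with a log2 difference of -0.55 (limma BH-adjusted p = 0.184). HC counts of *Cntn4* were 32, 2 and 3, and its log2 difference of 3.49 did not pass (limma BH-adjusted p = 0.0733).

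**Figure D4:**
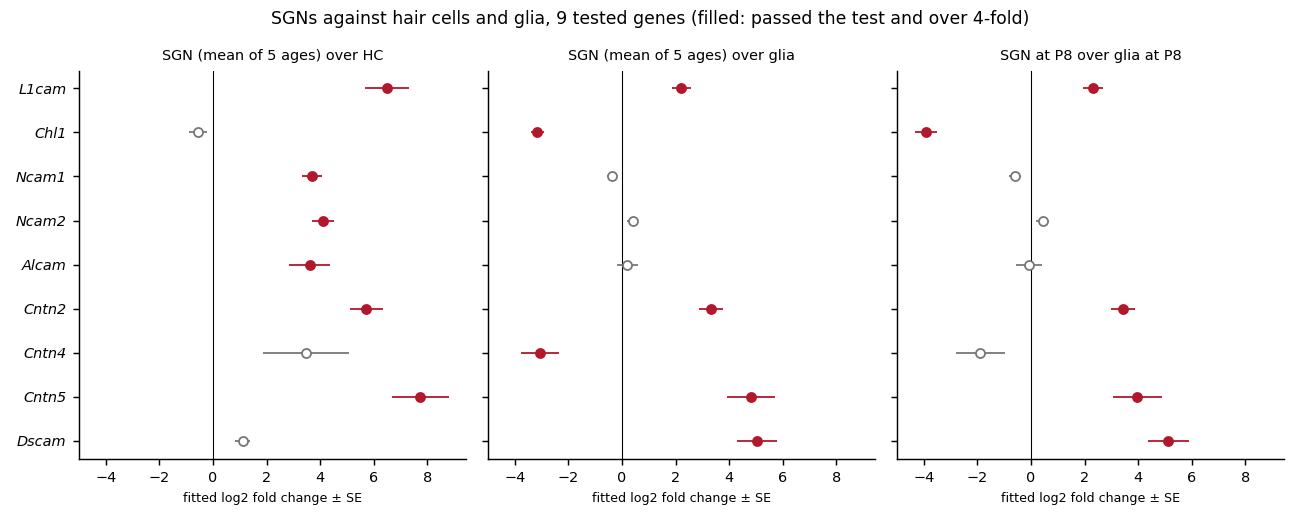
Fitted log2 fold change of SGNs over HCs and over glia (x axis, bars are ± SE) for the 9 tested genes; filled points passed limma's BH-adjusted p under 0.01 and a 4-fold change. Against HCs the 6 filled points lie above 0, and against glia *L1cam*, *Cntn2*, *Cntn5* and *Dscam* lie above 0 and *Chl1* below 0 in both panels.

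Against P8 glia, *L1cam*, *Cntn2*, *Cntn5* and *Dscam* were higher in SGNs and *Chl1* and *Cntn4* were lower, 6 of 9 tested genes, where 24.7% of all genes were called, 14.3% as higher and 10.4% as lower. With SGNs of the same age, P8, the genes called were *L1cam*, *Cntn2*, *Cntn5*, *Dscam* and *Chl1*, 5 of 9, where 20.9% of all genes were called, 13.4% as higher and 7.53% as lower. *Ncam1*, *Ncam2* and *Alcam*, which were called against HCs, did not pass against glia.

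*Chl1* was measured at 8.78, 8.65 and 8.74 RPKM in glia, above every SGN library (8.96% of all genes), with a log2 difference of -3.93 at P8 (SE 0.409, limma BH-adjusted p = 3.73e-07) and -3.16 over the mean of ages (SE 0.251, limma BH-adjusted p = 1.89e-09). *Dscam* had 1.7, 0.0934 and 0.0906 RPKM in glia, from 245, 8 and 7 counts, and 7.93, 12 and 11.5 RPKM in P8 SGNs. The log2 difference at P8 was 5.12 (SE 0.769, limma BH-adjusted p = 2.38e-05), and it ranged from 4.32 without glia replicate 2 to 6.70 without glia replicate 1, the glial library with the most SGN markers.

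*Cntn5* had 2.87, 0.773 and 0.0428 RPKM in glia, from 251, 40 and 2 counts. The log2 difference at P8 was 3.98 (SE 0.929, limma BH-adjusted p = 0.0017). It was 5.46 without glia replicate 1 and 2.45 without glia replicate 3, where it did not pass (limma BH-adjusted p = 0.0119). Nor did it pass with weights for sample quality (3.90, adjusted p = 0.0427 from limma) or in a fit of these 2 groups alone (4.20, 0.0157). For *Cntn2*, at 2.97, 0.612 and 1.81 RPKM in glia and 15.9, 19.2 and 18.1 RPKM in P8 SGNs, the log2 difference was 3.44 (SE 0.463, limma BH-adjusted p = 7.5e-06), with 4.08 without glia replicate 1 and 2.84 without glia replicate 2. In these 3 genes glia replicate 1 held the highest level of the glial libraries. It did so too for *Ncam1* and *Cntn6*, and for *L1cam* and *Chl1*, where another glial library was close. For *Ncam2*, *Alcam* and *Cntn4* another glial library was highest. The part of SGN RNA in that library was not tested.

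*L1cam* had 18.2, 4.56 and 17.3 RPKM in glia and 58.4, 60.2 and 60.6 RPKM in P8 SGNs, with a log2 difference of 2.33 (SE 0.372, limma BH-adjusted p = 4.68e-05). Glia replicate 2 was the low library, and without it the difference was 1.74, under 4-fold. Over the mean of ages the log2 difference was 2.21 (SE 0.347, limma BH-adjusted p = 2.37e-05). Without glia replicate 2 it was 1.63, also under 4-fold. *Cntn4* was unevenly spread over the glial libraries, with 0.795, 10.8 and 8.86 RPKM. Its log2 difference over the mean of ages was -3.06 (SE 0.719, limma BH-adjusted p = 0.00136), with overlap between the groups. The value was -4.63 without glia replicate 1, and the call was lost without glia replicate 2 (-2.33, limma BH-adjusted p = 0.0191) or glia replicate 3 (-2.51, limma BH-adjusted p = 0.0131). Against P8 SGNs it was -1.89 (limma BH-adjusted p = 0.103), and -3.46 without glia replicate 1, where it passed (limma BH-adjusted p = 0.000236).

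*Ncam1* in glia was 52.1, 25.6 and 30.7 RPKM, within reach of the 29, 24.2 and 19 RPKM of P8 SGNs, and *Alcam* in glia was 14.8, 12.2 and 24.2 RPKM against 14.9, 17.4 and 13.4. *Ncam2* was 11.2, 11.8 and 9.37 RPKM in glia against 14.6, 13.7 and 16.1 RPKM in P8 SGNs, without overlap and with a limma BH-adjusted p of 0.141. Groups without overlap between P8 SGNs and glia were found for 44.9% of all genes tested.

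Among the genes themselves, levels over the 15 SGN libraries moved together for *Chl1* and *Ncam1* (Pearson's r of log2(RPKM + 1) 0.943), *Chl1* and *Cntn5* (0.892) and *Chl1* and *Alcam* (0.891). *Cntn2* and *Cntn5* had an r of -0.757, and *L1cam* and *Cntn5* one of -0.0231. These values describe libraries that share their ages, depth and normalization, with no test. Over all 21 libraries and on log2(TPM + 1), where TPM is the length-scaled count relative to the sum over all genes, the gene most like each was *Ngfr* for *L1cam* (r = 0.975), *Sbf2* for *Chl1* (0.935), *Nav3* for *Ncam1* (0.95), *Meg3* for *Ncam2* (0.941), *Cacna1h* for *Alcam* (0.947), *Syn2* for *Cntn2* (0.986), *Gm9625* for *Cntn4* (0.85), *Kif21b* for *Cntn5* (0.979) and *Wdr59* for *Dscam* (0.977). On log2(RPKM + 1) the first gene was the same for *L1cam* (*Ngfr*, 0.982) and *Chl1* (*Sbf2*, 0.955), and another for the other 7: *Cadm1* for *Ncam1* (0.96), *Ptprs* for *Ncam2* (0.955), *Stmn1* for *Alcam* (0.947), *Fkbp1b* for *Cntn2* (0.988), *Slc25a10* for *Cntn4* (0.917), *Myo5b* for *Cntn5* (0.979) and *Sema3e* for *Dscam* (0.97).

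Other adhesion genes of the same and related families were counted beside these 10. Of 28 tested, 10 rose and 7 fell from E15.5 to P30, where 18.4% of all genes were called as higher and 16.2% as lower. In the L1 family, *Nrcam*, a node of Ranvier protein, fell from 27.4 ± 8.27 to 10.3 ± 1.7 RPKM (SD, n = 3). Among contactins, *Cntn1*, the contactin of paranodes, rose from 17.8 ± 3.72 to 50.2 ± 5.97 RPKM, so the contactins held a gene that fell (*Cntn5*) and one that rose. *Sdk1* and *Sdk2*, the sidekicks, went in different directions, from 2.65 ± 0.199 to 0.192 ± 0.0803 RPKM and from 2.64 ± 2.69 to 7.71 ± 2.08 RPKM. *Mcam*, a relative of *Alcam*, rose from 4.56 ± 3.8 to 32.5 ± 7.02 RPKM. It was far higher in glia, at 153 ± 28.4 RPKM.

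The contactin-associated proteins are membrane partners of contactins, and 4 of 6 tested rose from E15.5 to P1 (5.08% of all genes) and 4 of 6 from E15.5 to P30 (18.4% of all genes), with 0 that fell. *Cntnap1*, the partner of contactin at paranodes, went from 3.22 ± 2.6 RPKM at E15.5 to 13.7 ± 4.92 at P1, 30.2 ± 0.691 at P8 and 26.7 ± 4.57 at P30. *Cntnap5a* went from 4.96 ± 2.91 RPKM at E15.5 to 27.3 ± 3.4 at P1 and 43.2 ± 10.1 at P30. *Cntnap3* had at most 4 counts in any E15.5 library and between 38 and 107 at P30. In the IgLONs, lipid-anchored adhesion proteins of neurons, 2 of 5 fell (16.2% of all genes), *Opcml* from 7.14 ± 1.91 to 1.7 ± 0.655 RPKM and *Ntm* from 26.2 ± 10.7 to 8.52 ± 1.52 RPKM. Of the 8 SynCAMs and nectins, 3 rose and 3 fell, beside 18.4% and 16.2% of all genes. *Nectin3* fell from 10.5 ± 2.45 to 1.54 ± 0.39 RPKM, *Nectin1* fell from 11.1 ± 1.4 to 2.23 ± 0.469 RPKM, and *Nectin4* rose from 1.2 ± 1.05 to 3.64 ± 0.868 RPKM.

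Of 17 tested partners and modifying enzymes, 2 rose and 10 fell from E15.5 to P30 (18.4% and 16.2% of all genes), with a median log2 change of -1.54 beside -0.0064 over all genes. *St8sia2* and *St8sia4*, the enzymes that add polysialic acid to NCAM1, both fell. *St8sia2* went from 29.1 ± 7.86 RPKM at E15.5 and 17.9 ± 6.03 at P1 to 1.91 ± 0.321 at P8 and 1.12 ± 0.801 at P30. Its log2 change from P1 to P8 was -3.20 (SE 0.445, limma BH-adjusted p = 0.000209), in the same step in which *Ncam1* fell. In HCs, where *Ncam1* was at 2.22 ± 0.408 RPKM, *St8sia2* was at 31.1 ± 4.83 RPKM. *St8sia4* had between 220 and 456 counts at E15.5 and between 0 and 58 at P30. *Dcx*, a microtubule protein of immature neurons, fell from 109 ± 20.2 to 2.08 ± 0.443 RPKM.

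**Figure D5:**
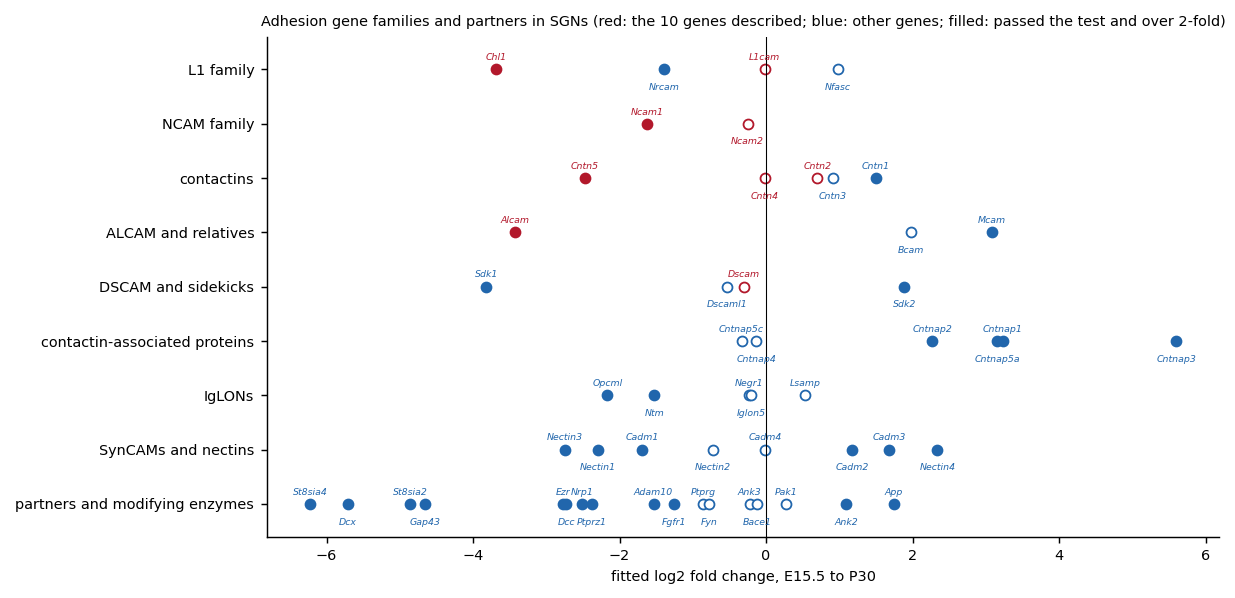
Fitted log2 fold change from E15.5 to P30 (x axis) of every tested gene of the adhesion families and of their partners (rows); red marks the genes of this report, blue the other genes, and filled points passed limma's BH-adjusted p under 0.05 and a 2-fold change. The filled points of contactin-associated proteins lie above 0, and 10 of 12 filled partners lie below 0.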

How the data were processed

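Libraries of amplified cDNA (Ovation RNA-Seq V2) from the 21 samples were sequenced by the authors. Per the submitters' processing notes and the study's methods, CASAVA, STAR 2.4.0i, the mm10 genome and featureCounts with a GENCODE annotation were used. Settings for strand, read pairs and multimapping are not given in the sources used here. The deposited table holds raw read counts per gene, with 10368240 to 37287489 counts per library, and no comparison columns. Among counts from 1 to 20, between 64.3% and 75% were even, so the number of independent fragments is not known. HCs were sorted by hand per the labels and by flow cytometry per the methods.

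The 10 genes, the other gene lists and the tests were chosen with earlier results of these data known. Groups came from the labels. Genes with over 1 CPM in all replicates of at least 1 group were kept. TMM factors (edgeR 4.0.16) and voom with limma 3.58.1 in R 4.3.3 were used, with BH adjustment over all genes tested, in a fit of the 15 SGN libraries for ages (15113 genes) and of all 21 for reference cells (17531 genes). Levels are RPKM on the TMM effective library size, the planned rescaling of TPM, since *Gm23935*, a gene of 57 bases, took 8.17% to 68.1% of plain TPM. No duplicate libraries were found. Same-numbered replicates were taken as paired when their deviations from group means correlated above 0.1 in all 3. No 2 groups compared directly met this rule, though some SGN ages came near it. The correlations of replicates 1, 2 and 3 were 0.38, 0.23 and 0.092 between P14 and P30. They were 0.37, 0.064 and 0.16 between P1 and P8, and 0.32, 0.14 and 0.02 between P8 and P14. P8 and P30 SGNs, which meet only in the test across ages, had correlations of 0.39, 0.18 and 0.15.

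Outside the 10 genes, up to 3 called genes with the largest change from E15.5 to P30 were named per list, and *St8sia2* was followed in other groups after its values were seen. The nearest gene to each member was taken by Pearson's r over 21 libraries. Alternatives were RLE size factors, no filter, edgeR's quasi-likelihood test, DESeq2 1.42.0, sample quality weights, a replicate block, other libraries in the fit, plain TPM, leaving out each library and, added after the data were seen, leaving out replicate 1 of all SGN ages. Scripts were tested on simulated data. Figures were drawn with matplotlib 3.10.9 in Python 3.11.15. Positions came from GENCODE M21 and promoter windows from RefSeq. Some marker genes fixed for SGNs and glia are not reported here, and the marker sums were computed without them.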

Additional observations from a re-analysis of the deposited data

How the results depend on the processing

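The number of the 10 genes called stayed within 1.5 times its value under every alternative run for the comparisons other than E15.5 to P1. There it was 1, with 0 under sample quality weights, 2 under the replicate block and 2 without the replicate 1 libraries of all SGN ages (*Alcam* and *Cntn4* in both), and 0 to 1 when each library was left out. edgeR and DESeq2 each called 1 gene there, *Cntn4* in place of *Alcam*. In the test across 5 ages the replicate block added *Cntn4* (adjusted p = 0.0186 from limma). Differences from E15.5 to P30 that changed sign were those of *L1cam*, *Cntn4* and *Dscam*, none of them called. *L1cam* was at 0.0658 with no filter, 0.0054 in edgeR, 0.0346 in the fit of 21 libraries, and -0.27 to 0.22 leaving out each library. *Cntn4* was at 0.0586 with no filter, 0.42 under sample quality weights, 0.0865 under the replicate block, 0.0868 in the fit of 21 libraries, 0.0966 without replicate 1 of all SGN ages, and -0.96 to 1.14 leaving out each library. *Dscam* was at 0.0030 without replicate 1 of all SGN ages. As the log2 ratio of mean plain TPM, an alternative chosen after seeing the data, *L1cam* was at -0.20 and *Cntn4* at 0.11, against 0.04 and -0.18 from RPKM. The cause of these changes was not tested. Against glia, with weights for sample quality, *Cntn5* and *Cntn4* no longer passed over the mean of SGN ages (BH-adjusted p from limma of 0.0155 and 0.0109), and *L1cam* was at 1.98 in DESeq2, under 4-fold. Against HCs, *Cntn4* passed in DESeq2 (2.48, BH-adjusted p = 0.00984) and with weights for sample quality (3.52, BH-adjusted p from limma of 0.00578). At least 1 library held 10 counts or fewer of *Cntn6* in all 7 groups, of *Cntn4* at P1 and in HCs, of *Cntn5* in HCs (all 3 libraries) and glia, and of *Dscam* in glia.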
